A study of Mus musculus with 8 samples.

Results

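The genes described here are alarmin and wound-response genes of keratinocytes, read in mouse dorsal skin after topical treatment. They were chosen by symbol as S100a8, S100a9, Serpinb3a, Lcn2, Krt6a, Krt6b, Krt16, Krt17, Il1b and Il1rn, with earlier values of these arrays known. Of these 10 genes, 8 had a probe set with a single gene symbol on the Clariom S Mouse array, 1 probe set each among the 22206 that were tested. Krt6a and Krt6b had none, and no value is given for them. The animals were male mice of the inbred strain C3H, 7 weeks old, kept for 7 days, depilated on the back with a cream and then treated daily for 20 days. The groups were tieghemelin at 1%, maslinic acid at 1%, minoxidil at 1% and Milli-Q water as control, with 2 arrays each; the second minoxidil array carries 1% in one label and 2% in another. Tieghemelin is a saponin and maslinic acid a triterpenic acid, both from plants, and minoxidil is a drug for hair growth. Every group was depilated, and skin without depilation was not analysed here. The labels tie no array to a single mouse of the 8 in a group, so errors cover only how far these arrays differ, and that may be a technical spread.

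When skin is injured, keratinocytes release alarmins, proteins that alert immune cells, and change part of their keratin set. S100a8 and S100a9 encode the calcium-binding partners of calprotectin, which neutrophils also hold in abundance, and Lcn2 encodes lipocalin 2, which captures iron carriers of bacteria. Il1b encodes the inflammatory cytokine interleukin-1 beta and Il1rn the antagonist of its receptor. Krt6a, Krt6b, Krt16 and Krt17 encode keratins of the wound edge that the hair follicle also makes without a wound. Serpinb3a encodes a protease inhibitor of squamous epithelia.

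Values are deposited log2 signals, so a difference of 1 is a doubling, and they compare 1 probe set between arrays, not one gene with another. Control array 1 stood apart, with a Pearson r of 0.518 to 0.538 to the other arrays, while those 7 had 0.901 to 0.966 among themselves. A probe set of the spiked-in control transcript bioB, which is not from skin, read 4.48 on it and 8.29 to 8.92 on the other 7. For the spiked-in cre these values were 6.25 and 12.4 to 12.8. The cause was not tested. Comparisons with control are therefore given with and without control array 1. It also enters the spread shared by all comparisons, and those between treatments are given with all 8 arrays. Their differences do not depend on it, but standard errors (SE), intervals and calls do. Without it the SEs of the measured genes were smaller, for Serpinb3a 0.35 where all 8 arrays gave 0.76. Background was read from 23 antigenomic probe sets, which have no target in the mouse genome. Its median was 7.02 and 6.97 with tieghemelin, 6.96 and 7.08 with maslinic acid, 7.51 and 7.33 with minoxidil and 7.75 and 7.61 in control skin. Where a gene exceeded this median on neither array of a group, only a bound on the fold is given, with each array of that group at the higher of its signal and its background. Of the defining skin markers, Krt5, Krt1 and Krt10 exceeded background on 8 arrays and Krt14 on 7, but Krt2 and Lor, of upper epidermis, on 0. In whole skin, fewer cells of a type and less RNA per cell cannot be told apart.

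The promoters of the genes that the results turn on are shown for orientation, as the 250 bases before a RefSeq start (build GRCm38.p6). Of the 10 genes, 6 had an entry. For Il1b that start lies inside the gene, whose bounds reach 129371164 on chromosome 2, so the last bases shown are within it. Capitals mark TATAAA, the common core promoter motif, or TTGCNNAA, a motif of C/EBP factors. The stretches lie at chr3:90668821-90669070 (plus strand), chr3:90695722-90695971 (minus strand), chr1:107052304-107052553 (minus strand) and chr2:129371140-129371389 (minus strand), and run 5′ to 3′ on the strand of the gene.
S100a8: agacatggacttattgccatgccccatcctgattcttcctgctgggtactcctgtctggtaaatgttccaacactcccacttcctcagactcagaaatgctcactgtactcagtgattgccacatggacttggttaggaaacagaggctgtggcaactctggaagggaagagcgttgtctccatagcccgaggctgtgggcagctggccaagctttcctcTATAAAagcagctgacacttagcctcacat
S100a9: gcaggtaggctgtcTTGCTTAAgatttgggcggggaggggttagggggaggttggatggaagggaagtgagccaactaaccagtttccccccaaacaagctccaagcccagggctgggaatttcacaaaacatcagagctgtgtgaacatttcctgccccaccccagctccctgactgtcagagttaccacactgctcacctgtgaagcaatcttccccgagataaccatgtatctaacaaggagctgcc
Serpinb3a: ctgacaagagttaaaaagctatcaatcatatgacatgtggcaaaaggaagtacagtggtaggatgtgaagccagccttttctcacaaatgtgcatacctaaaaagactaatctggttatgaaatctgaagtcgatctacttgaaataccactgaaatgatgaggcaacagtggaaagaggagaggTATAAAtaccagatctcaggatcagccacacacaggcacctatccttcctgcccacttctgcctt
Il1b: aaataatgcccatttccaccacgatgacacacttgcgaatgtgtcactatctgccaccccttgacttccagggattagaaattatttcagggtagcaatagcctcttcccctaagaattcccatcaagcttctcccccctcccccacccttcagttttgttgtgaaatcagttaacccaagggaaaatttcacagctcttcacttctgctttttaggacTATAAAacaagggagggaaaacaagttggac
S100a8 and S100a9 lie 22.6 kb apart on chromosome 3, on opposite strands. TATAAA began 30 bases before the start of S100a8, 65 before that of Serpinb3a and 31 before that of Il1b, and TTGCNNAA began 236 before that of S100a9. Searched on both strands, TATAAA was in 13% of 27025 promoters of equal length and TTGCNNAA in 9.55%. No match was found in these 4 windows for TGANTCA (AP-1, in 6.87% of promoters), TTCNNNGAA (STAT, 7.18%) or the NF-kB motif (1.4%). The entries of Lcn2 and Il1rn, not shown, did hold matches. TTGCNNAA began 216 bases before the start of Lcn2. Il1rn has 3 listed starts: TGANTCA began 141 bases before start 1, and the NF-kB motif 51 before start 3. A match is a match of letters only.

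Among the alarmins, S100a8 varied most between arrays of 1 group. It read 7.33 and 10.13 with tieghemelin, 7.41 and 7.75 with maslinic acid, 6.59 and 6.45 with minoxidil and 6.72 and 7.15 in control skin. Tieghemelin array 2 was high alone, tieghemelin array 1 lay below both maslinic acid arrays, and no minoxidil or control array exceeded background. Tieghemelin averaged 8.73 ± 1.98 and maslinic acid 7.58 ± 0.24 (SD, n = 2 each), a difference of 1.15 (SE 0.78) that turned to -0.25 without tieghemelin array 2. Against minoxidil, at 6.52 ± 0.10, tieghemelin was at least 2.48-fold higher. Without that array no bound was left, since tieghemelin array 1 lay below the mean background of the minoxidil arrays. The gap of 2.79 between the tieghemelin arrays was reached by 0.0135% of probe sets, 3 in number. The other two, named after their values were seen, were Tmsb4x (7.18 and 10.89), the gene of the actin-binding thymosin beta, and Fth1 (9.12 and 12.23), that of the ferritin heavy chain.

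S100a9, whose protein pairs with that of S100a8, read 8.99 and 10.04 with tieghemelin, 8.42 and 8.24 with maslinic acid, 8.76 and 8.77 with minoxidil and 8.16 and 7.60 in control skin. Both tieghemelin arrays exceeded every other array, and array 2 was again the higher. Tieghemelin averaged 9.52 ± 0.74 and maslinic acid 8.33 ± 0.12, a difference of 1.18 (SE 0.44) or 2.27-fold. Tieghemelin lay 0.75 (SE 0.44) above minoxidil, at 8.76 ± 0.0087. Without tieghemelin array 2 these differences were 0.66 and 0.23. Maslinic acid was lower than minoxidil by value (-0.43, SE 0.44), whereas for S100a8 it was at least 1.12-fold higher.

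Serpinb3a read 9.52 and 9.71 with tieghemelin, 8.90 and 9.73 with maslinic acid, 8.07 and 7.63 with minoxidil and 6.32 and 8.88 in control skin. Its arrays overlapped between tieghemelin and maslinic acid, and both groups lay above both minoxidil arrays. The difference of tieghemelin from maslinic acid was 0.30 (SE 0.76), with a 95% interval of -1.44 to 2.04. Tieghemelin exceeded minoxidil by 1.76 (SE 0.76), or 3.40-fold, and by 1.67 without tieghemelin array 2. Maslinic acid exceeded minoxidil by 1.46 (SE 0.76).

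Close paralogs of Serpinb3a can share signal with it, so their probe sets are given too. Serpinb3d read 8.23 and 8.07 with tieghemelin, 7.56 and 7.60 with maslinic acid, 8.04 and 7.40 with minoxidil and 6.53 and 7.19 in control skin. Tieghemelin exceeded maslinic acid by 0.57 (SE 0.40), without overlap. Serpinb3c read 9.53 and 8.97 with tieghemelin, 9.07 and 9.55 with maslinic acid, 8.85 and 9.04 with minoxidil and 10.26 and 8.36 in control skin, and tieghemelin overlapped with each other group.

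Lcn2 read 6.79 and 7.77 with tieghemelin, 6.11 and 6.58 with maslinic acid, 6.87 and 6.94 with minoxidil and 6.62 and 6.77 in control skin. Tieghemelin array 2 was the 1 array of 8 above background. Tieghemelin was at least 1.20-fold higher than maslinic acid. That rests on array 2: without it no array of either group exceeded background, and no fold is given. Against minoxidil the bound leaves no difference, and the signals overlapped.

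**Figure D1:**
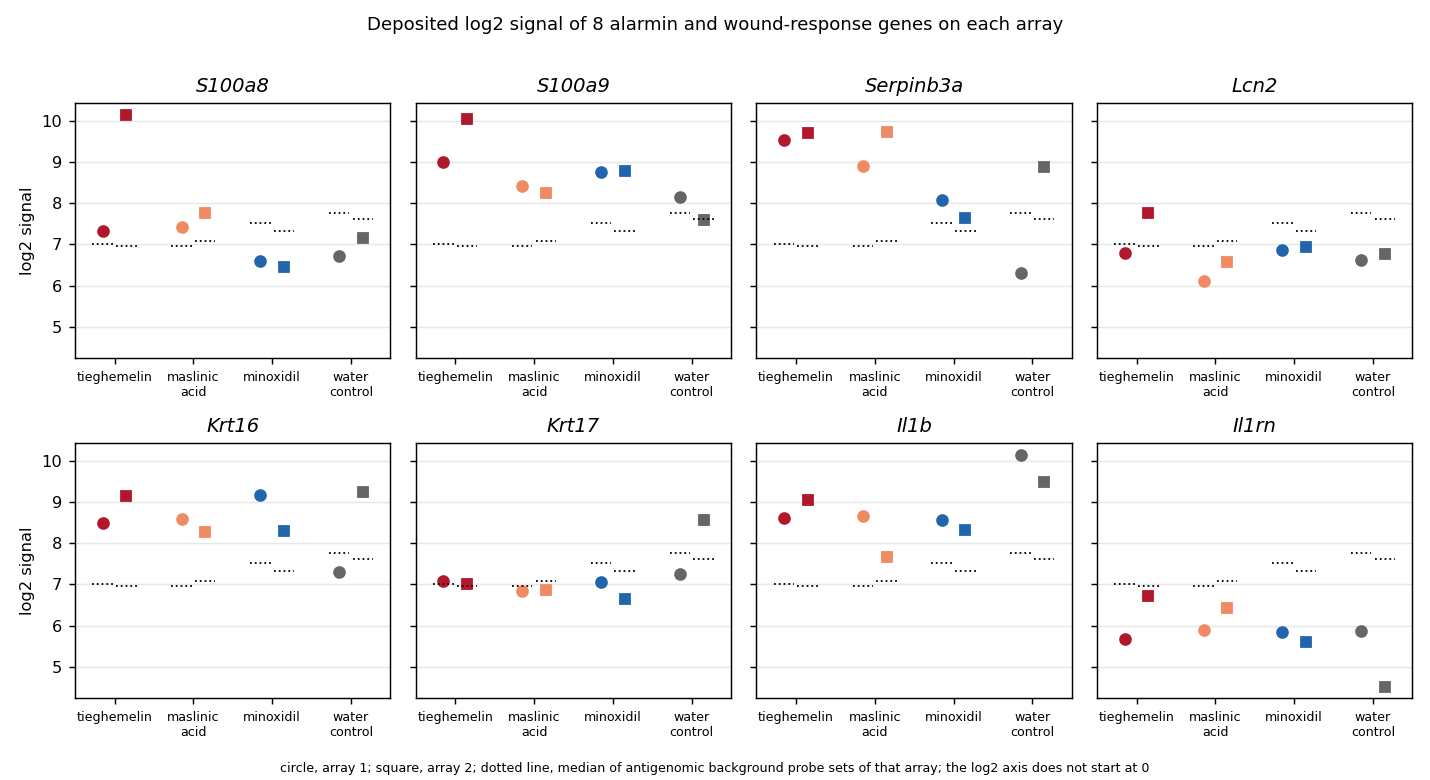
Log2 signal (vertical axis) of the 8 measured genes on each array, by group from left to right tieghemelin, maslinic acid, minoxidil and water control, with circles for array 1, squares for array 2 and dotted lines for the background median of each array. S100a8 on tieghemelin array 2 (10.13) stands above the other 7 arrays, Il1b is highest on both control arrays (10.14 and 9.49), and Il1rn lies under background on every array.

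Of the wound-edge keratins, Krt16 read 8.48 and 9.14 with tieghemelin, 8.59 and 8.27 with maslinic acid, 9.16 and 8.30 with minoxidil and 7.29 and 9.24 in control skin. Tieghemelin overlapped with every other group. It differed from maslinic acid by 0.38 (SE 0.65), with a 95% interval of -1.11 to 1.87, and from minoxidil by 0.08 (SE 0.65), with one of -1.41 to 1.57. Krt17, whose gene lies 7.31 kb from Krt16, read 7.09 and 6.999 with tieghemelin, 6.84 and 6.87 with maslinic acid, 7.07 and 6.64 with minoxidil and 7.25 and 8.56 in control skin. It was highest on control array 2, exceeded background only narrowly on the tieghemelin arrays and on no maslinic acid or minoxidil array. Tieghemelin was at least 1.02-fold higher than maslinic acid, without overlap, and against minoxidil the bound left no difference. Krt75, a companion layer keratin gene outside the 10, read 7.95 and 8.57 with tieghemelin, 9.44 and 7.70 with maslinic acid, 8.13 and 8.89 with minoxidil and 8.19 and 9.29 in control skin, with overlap between tieghemelin and each other group.

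Of the cytokine genes, Il1b exceeded background on all 8 arrays. It read 8.61 and 9.06 with tieghemelin, 8.66 and 7.67 with maslinic acid, 8.56 and 8.33 with minoxidil and 10.14 and 9.49 in control skin. Both control arrays exceeded every treated array. Tieghemelin averaged 8.83 ± 0.31 and maslinic acid 8.17 ± 0.70, a difference of 0.66 (SE 0.46) with overlap. That difference was 0.17 without maslinic acid array 2 and 1.16 without maslinic acid array 1. Minoxidil, at 8.44 ± 0.16, lay under both tieghemelin arrays, by 0.39 (SE 0.46).

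Il1rn, the antagonist gene, read 5.67 and 6.73 with tieghemelin, 5.89 and 6.43 with maslinic acid, 5.85 and 5.61 with minoxidil and 5.87 and 4.52 in control skin. All 8 values were below background, and no fold is given. Il1a, the gene of the other interleukin-1 ligand, read 7.94 and 7.89 with tieghemelin, 8.08 and 8.03 with maslinic acid, 7.53 and 7.58 with minoxidil and 8.92 and 8.06 in control skin. Tieghemelin lay above both minoxidil arrays and below both maslinic acid arrays, with differences of 0.36 (SE 0.39) and -0.14 (SE 0.39).

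**Figure D2:**
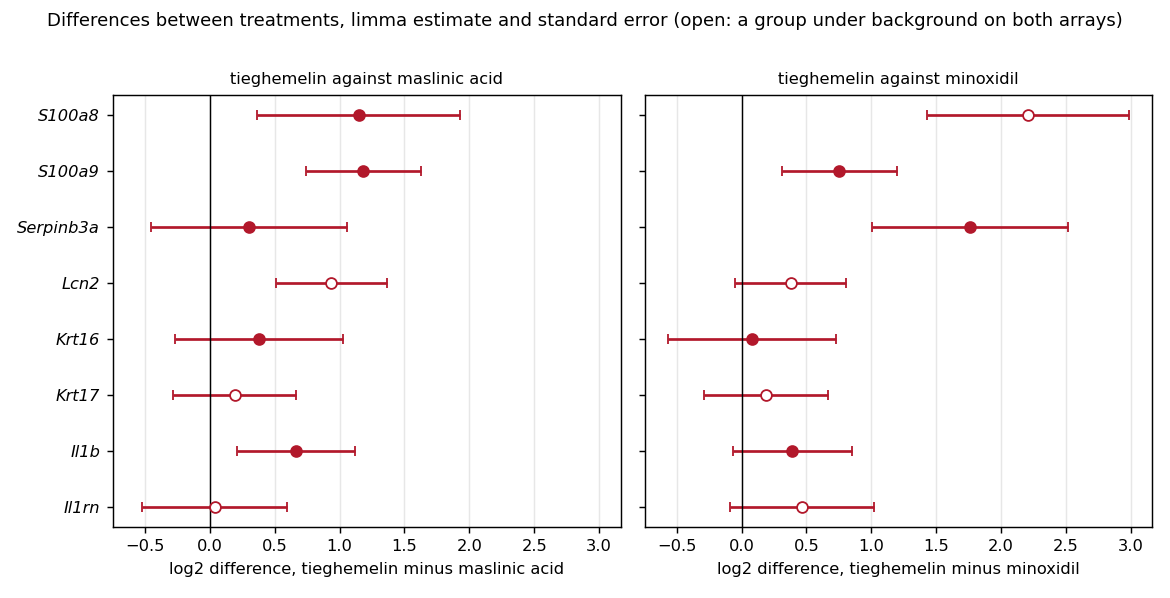
Log2 difference of tieghemelin minus maslinic acid (left) and tieghemelin minus minoxidil (right) for the 8 measured genes, with limma's estimate as a point and 1 standard error either side as a bar. Open points mark genes that exceeded background on neither array of at least 1 group, so their estimates are not measured differences. Among the filled points, against maslinic acid S100a9 (1.18) and S100a8 (1.15) lie highest, and against minoxidil Serpinb3a (1.76) does.

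The genes were proposed with these contrasts in view, so the differences are a description and not a test. Against maslinic acid limma called 0 of 8 at an adjusted p under 0.05, as it did 0% of all probe sets, of which 0.306% had an unadjusted p under 0.05. The study's own rule took a gene as changed at 1.7-fold or more with an unadjusted p up to 0.05, and it held for 1 of 8 (S100a9, background 0.306%). The arrays did not overlap for 3 of 8 (S100a9, Lcn2 and Krt17, background 30.6%). All 8 estimates were above 0, as were 50.7% over all probe sets, and their median was 0.52, against 0.01 over all. These 8 include Il1rn, under background in both groups, and Lcn2 and Krt17, for which only a bound is known.

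Against minoxidil, limma also called 0 of 8 (background 0%). The study's rule held for 2 of 8, S100a8 and Serpinb3a (background 3.3%, also the share with an unadjusted p under 0.05), and the arrays did not overlap for 4 of 8, these with S100a9 and Il1b (background 43.8%). All 8 estimates were above 0 (background 47.2%), with a median of 0.43, against -0.03 over all probe sets. They include Il1rn, under background in both groups, Lcn2 and Krt17, whose bounds leave no difference, and S100a8, whose bound of 2.48-fold stands on tieghemelin array 2. Both comparisons share the tieghemelin arrays. Between maslinic acid and minoxidil, with all 8 arrays, 0 of 8 genes were called (background 0%) and 0 met the study's rule (3.6%). Of the 8 genes, 5 did not overlap (43.6%) and 3 were above 0 (47.7%), with a median of -0.14. The sign of that median was not stable: it was 0.17 without minoxidil array 1, 0.07 without maslinic acid array 2 and 0.26 with arrays shifted to a common background median, where all probe sets had 0.37.

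Tieghemelin array 2 was the highest of all 8 arrays for 4 of the 8 genes, S100a8, S100a9, Lcn2 and Il1rn. It exceeded tieghemelin array 1 for 7 of 8, all but Krt17, as it did for 50.7% of all probe sets. The median gap between the 2 tieghemelin arrays, regardless of sign, was 0.82 over the 8 genes and 0.29 over all probe sets. With maslinic acid these medians were 0.41 and 0.31, with minoxidil 0.23 and 0.39, and in control skin 0.98 and 0.89. Without tieghemelin array 2 the median difference of the 8 genes was 0.22 against maslinic acid and 0.20 against minoxidil. With arrays shifted to a common background median it was 0.55 against maslinic acid (all probe sets 0.03) and 0.86 against minoxidil (all probe sets 0.40). S100a9 then exceeded minoxidil by 1.18, where it was 0.75 without the shift, on a scale where the median of all probe sets was 0.40.

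Neutrophils carry S100a8, S100a9 and Lcn2 as well. Of 18 neutrophil markers 17 were measured, 14 of them outside the 10 genes, and the log2 of their summed signal was 11.73 and 11.72 with tieghemelin, 11.73 and 11.76 with maslinic acid, 11.62 and 11.91 with minoxidil and 11.87 and 11.75 in control skin. The sum was alike on both tieghemelin arrays, but it adds unlogged signals, background included, so changes of single genes can cancel or be hidden. On tieghemelin arrays 1 and 2, Csf3r read 8.35 and 8.84 and Cd177 7.97 and 8.47. The other way, Cxcr2 read 9.57 and 9.19 and Mmp8 8.21 and 7.55. Among genes of neutrophil granules, Camp and Mmp9 exceeded background on 0 arrays, Ctsg on 1, Ltf on 3 and Ngp on 4. Elane exceeded background on 6 arrays, Mpo and Prtn3 on 7 and Mmp8 on 8. Of the 14 genes, 10 and 10 exceeded it with tieghemelin, 9 and 11 with maslinic acid, 8 and 9 with minoxidil and 6 and 7 in control skin. Over all probe sets, 79.2% and 80.3% exceeded it with tieghemelin and 80.3% and 77.7% with maslinic acid. These shares were 66.2% and 71.4% with minoxidil and 56.9% and 62.4% in control skin, in much the same order as the counts. The receptor genes Csf3r and Cxcr2 exceeded background on 8 arrays. Values were higher with tieghemelin for 5 of 14 against maslinic acid and 7 against minoxidil, with 0 at the study's thresholds. Ngp, a granule protein gene with the largest difference in the list, was at least 1.13-fold lower than with maslinic acid and at least 1.45-fold lower than with minoxidil. The part of neutrophils in the values of the 8 genes was not tested.

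The 11 macrophage and monocyte markers summed to 12.62 and 12.52 with tieghemelin, 12.02 and 12.48 with maslinic acid, 11.87 and 12.06 with minoxidil and 11.05 and 12.14 in control skin. Both tieghemelin arrays exceeded the other 6. The sum adds unlogged signals, so a strong gene weighs most, and this order rests largely on Mrc1. Values were higher with tieghemelin for 10 of 11 against maslinic acid. Against minoxidil 5 were higher and 6 lower, and 0 met the study's thresholds in either comparison. Mrc1, the mannose receptor gene of resident macrophages, read 11.76 and 11.54 with tieghemelin, 10.92 and 11.55 with maslinic acid, 9.79 and 10.40 with minoxidil and 8.32 and 10.90 in control skin, which was 1.56 (SE 0.75) above minoxidil. The part of macrophages in the values of the 8 genes was not tested.

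The sum of skeletal muscle markers differed more between groups than these sums. The sum of 12 was 12.94 and 12.41 with tieghemelin, 16.51 and 12.95 with maslinic acid, 16.01 and 14.74 with minoxidil and 18.09 and 18.95 in control skin, lowest on both tieghemelin arrays. At the study's thresholds 4 of 12 were lower with tieghemelin than with maslinic acid and 5 than with minoxidil, among them Tnnt3 (-4.04 and -3.16), a troponin gene. The 7 adipocyte markers summed to 11.99 and 12.04 with tieghemelin, 15.23 and 12.07 with maslinic acid, 11.54 and 12.03 with minoxidil and 12.34 and 14.42 in control skin, with maslinic acid array 1 the highest. The part of muscle and fat in the values of the 8 genes was not tested.

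Basal keratinocyte markers were higher with tieghemelin for 1 of 9 against maslinic acid and 2 against minoxidil, and their sum was 11.68 and 11.85 with tieghemelin, 12.52 and 12.03 with maslinic acid, 13.03 and 11.85 with minoxidil and 11.82 and 14.21 in control skin. Lama3, a laminin gene of the basement membrane, met the study's thresholds as lower than with minoxidil (-1.85, SE 0.63), and Itgb4, a hemidesmosome integrin gene, as higher (1.13, SE 0.41). Suprabasal markers were higher for 4 of 12 against maslinic acid and 4 against minoxidil, companion layer and outer root sheath markers for 2 of 6 against maslinic acid and 4 against minoxidil, and hair shaft and matrix markers for 3 of 9 against maslinic acid and 6 against minoxidil. These 3 lists had 0 genes at the study's thresholds.

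Other genes of the response were read from 10 pathway lists, with 139 measured genes outside the 10. The study's rule held for 1 of 139 (0.719%, against 0.306% of all probe sets) between tieghemelin and maslinic acid and for 7 (5.04%, against 3.3%) between tieghemelin and minoxidil, 4 higher and 3 lower, and limma called 0 after adjustment in both. The medians were 0.0014 and -0.08.

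Among the inducing signals, Il17ra, which encodes a subunit of the interleukin-17 receptor, met the rule against both. It read 8.59 and 8.62 with tieghemelin, 7.45 and 7.90 with maslinic acid, 7.39 and 7.46 with minoxidil and 8.24 and 8.56 in control skin. The tieghemelin arrays lay near the control arrays and above those of both other treatments, by 0.93 (SE 0.36) over maslinic acid and 1.18 (SE 0.36) over minoxidil. Traf3ip2, the gene of the adaptor Act1 of that receptor, read 9.62 and 9.08 with tieghemelin, 8.97 and 8.53 with maslinic acid, 7.72 and 8.14 with minoxidil and 8.45 and 8.02 in control skin. Both tieghemelin arrays exceeded the other 6, by 0.59 (SE 0.40) against maslinic acid and 1.42 (SE 0.40) against minoxidil, where it met the rule.

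Of 19 transcription factor genes, 2 met the rule against minoxidil and 0 against maslinic acid. Hif1a, the hypoxia-inducible factor, read 9.25 and 10.50 with tieghemelin, 8.37 and 8.71 with maslinic acid, 8.75 and 7.60 with minoxidil and 11.04 and 9.96 in control skin. It exceeded minoxidil by 1.70 (SE 0.60) and maslinic acid by 1.33 (SE 0.60). Nfkbiz, an NF-kB cofactor gene that interleukin-17 and interleukin-1 induce in keratinocytes, read 7.64 and 7.41 with tieghemelin, 7.52 and 7.58 with maslinic acid, 8.31 and 8.66 with minoxidil and 8.30 and 7.73 in control skin. It lay below minoxidil (-0.96, SE 0.37), and averaged 7.52 with tieghemelin and 7.55 with maslinic acid. Activity of interleukin-17 signalling was not tested.

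Of 26 wound-edge and hyperplasia genes, 1 was higher and 1 lower by the rule against minoxidil. Tgm1, the transglutaminase gene of the cornified envelope, read 9.48 and 9.68 with tieghemelin, 9.26 and 8.98 with maslinic acid, 8.37 and 8.47 with minoxidil and 7.02 and 8.46 in control skin, and exceeded minoxidil by 1.16 (SE 0.49). Sprr2h, a small proline-rich protein gene, was at least 1.18-fold lower than with minoxidil. Of 8 receptor genes of the alarmins, Slc22a17, a lipocalin 2 receptor gene, met the rule as lower than with minoxidil (-0.85, SE 0.35). It read 8.17 and 8.22 with tieghemelin, 7.94 and 8.28 with maslinic acid, 9.20 and 8.90 with minoxidil and 7.43 and 7.64 in control skin. Bsg, the gene of basigin, a receptor of S100A9, read 6.83 and 7.35 with tieghemelin, 8.69 and 7.45 with maslinic acid, 8.62 and 7.88 with minoxidil and 8.54 and 9.48 in control skin, lowest on both tieghemelin arrays but without meeting the rule against maslinic acid.

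**Figure D3:**
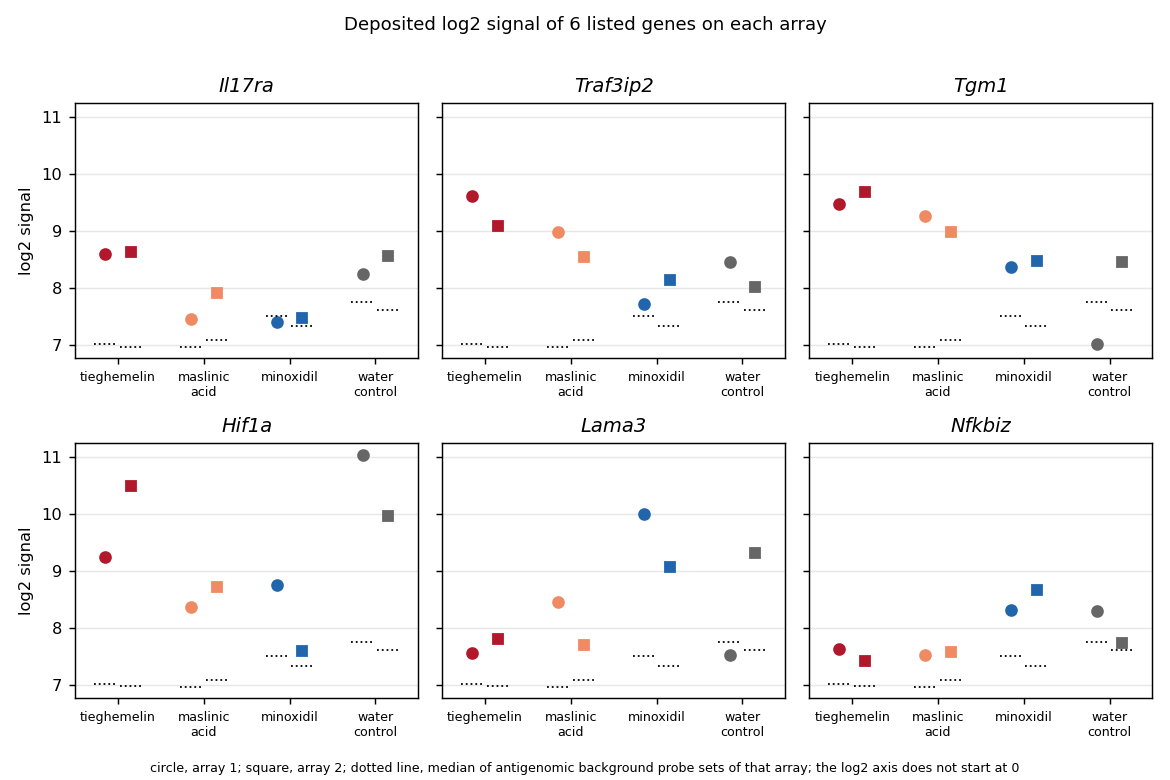
Log2 signal (vertical axis) of 6 listed genes outside the 10 on each array, with the same group order, symbols and background lines as in the plot of the 8 genes. Il17ra (8.59 and 8.62) and Traf3ip2 (9.62 and 9.08) are highest on the tieghemelin arrays, and Nfkbiz is highest with minoxidil.

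In the other pathway lists 0 genes met the rule in either comparison. The interleukin-1 family was higher by value for 7 of 14 against maslinic acid and 9 against minoxidil, and Il1f6, the gene of interleukin-36 alpha, differed by 0.58 (SE 0.44) and 0.74 (SE 0.44). The S100 family was higher for 4 of 12 against maslinic acid and 5 against minoxidil, with S100a14 at -0.53 (SE 0.61) against maslinic acid and S100a16 at 0.64 (SE 0.45) against minoxidil. The Serpinb clade was higher for 8 of 14 against maslinic acid and 10 against minoxidil, with Serpinb6a at -1.34 (SE 1.43) against minoxidil. Antimicrobial proteins were higher for 10 of 15 against maslinic acid and 7 against minoxidil, with the lysozyme gene Lyz2 at 0.56 (SE 0.54) against maslinic acid and Wfdc21 at -0.80 (SE 0.47) against minoxidil. Chemokines and cytokines were higher for 7 of 15 against maslinic acid and 3 against minoxidil, with Il6 at 0.36 (SE 0.53) against maslinic acid and Csf2 at least 1.35-fold lower than with minoxidil. EGF receptor ligands were higher for 2 of 6 against maslinic acid and 0 against minoxidil, with Hbegf at -0.80 (SE 0.43) against minoxidil.

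Further cell types were read on the same arrays. Fcer1a, a mast cell receptor gene, met the rule as lower than with minoxidil (-0.96, SE 0.36), as 1 of 6 mast cell markers. Zbtb46, 1 of 8 Langerhans and dendritic cell markers, met it too but lay below background in both groups. T cell markers were higher for 3 of 6 against maslinic acid and 5 against minoxidil, dermal fibroblast markers for 3 of 8 against maslinic acid and 3 against minoxidil and endothelial markers for 2 of 7 against maslinic acid and 3 against minoxidil, with 0 at the study's thresholds in these 3 lists.

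Against water control, limma called 0 of 8 genes for tieghemelin, maslinic acid or minoxidil, against 0%, 0% and 0% of all probe sets. With tieghemelin the study's rule held for 2 of 8 (background 11.7%), S100a9 at 1.63 (SE 0.44) and Serpinb3a at 2.02 (SE 0.76). Without control array 1 Serpinb3a differed by 0.74, S100a9 was at least 3.74-fold higher and S100a8 at least 2.17-fold higher. Arrays did not overlap for 6 of 8 (40.7%) and 6 were above 0 (52.4%).

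With maslinic acid the rule held for Il1b alone (1 of 8, background 10.8%), lower at -1.65 (SE 0.46) and -1.32 without control array 1. Arrays did not overlap for 7 of 8 (38.7%) and 5 were above 0 (52.7%). With minoxidil it was again Il1b (1 of 8, background 11.3%), at -1.37 (SE 0.46) and -1.05 without that array, with 5 of 8 not overlapping (36.2%) and 5 above 0 (53.3%). With tieghemelin Il1b differed by -0.98 (SE 0.46) and -0.66. These comparisons share the control arrays. Without control array 1 the sign of Krt16 turned in all 3, to -0.43 with tieghemelin (with all 8 arrays 0.55), -0.80 with maslinic acid (0.17) and -0.50 with minoxidil (0.47). Serpinb3a turned with minoxidil, to -1.03 (0.25).

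Without control array 1 the counts differed too. The study's rule then held for 3 of 8 with tieghemelin (S100a9, Krt17 and Il1rn, background 13.7%), so Serpinb3a left it. It held for 3 of 8 with maslinic acid (Krt17, Il1b and Il1rn, background 12.8%) and for 5 of 8 with minoxidil (S100a9, Serpinb3a, Krt17, Il1b and Il1rn, background 12.9%). Il1rn lay below background on all 8 arrays, so it has no fold here. Against the 1 control array left, 8 of 8 did not overlap with any treatment, with a background of 77.1% with tieghemelin, 75.5% with maslinic acid and 70% with minoxidil. Limma called 0 of 8 after adjustment in each, with a background of 0.356%, 0.0045% and 0.0045%, and the lone array was assumed to vary like the other groups.

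**Figure D4:**
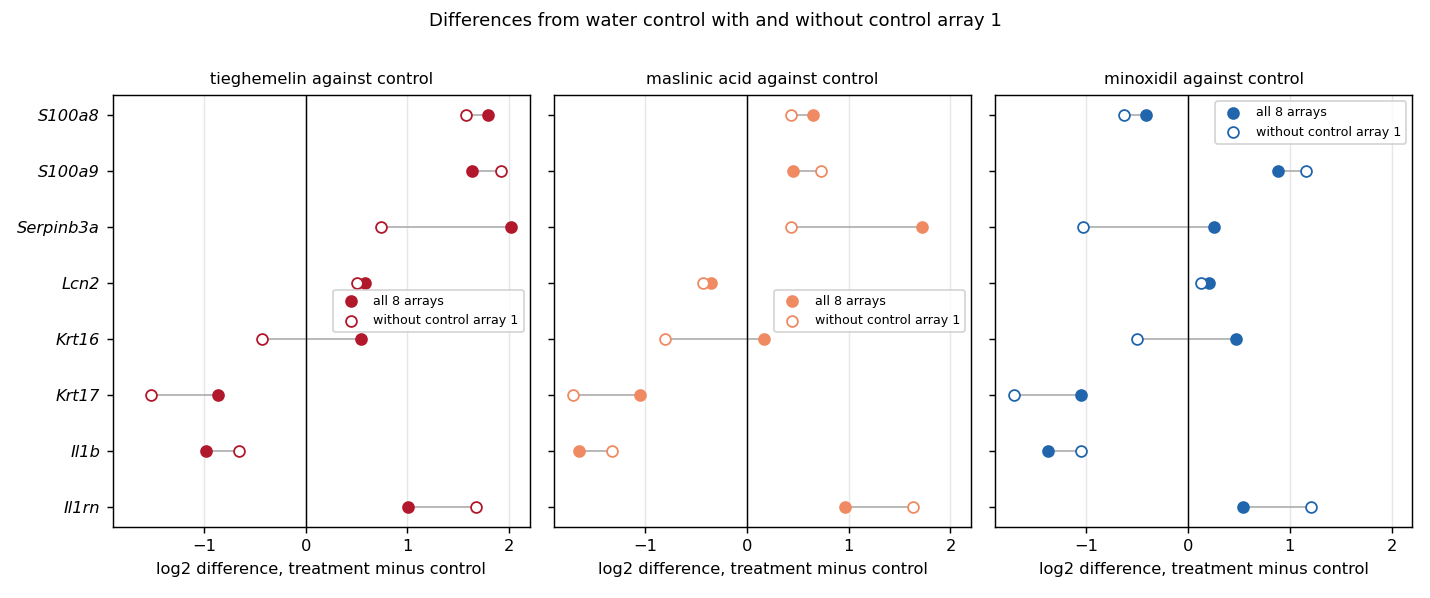
Log2 difference of each treatment minus water control for the 8 measured genes, with filled points for all 8 arrays and open points without control array 1. Serpinb3a with tieghemelin shows 2.02 and 0.74, Krt16 crosses 0 in each panel, and Il1b and Krt17 lie below 0 in each.

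Over the 7 arrays other than control array 1, S100a9 had a Pearson r of 0.73 with Lcn2, 0.66 with S100a8 and 0.21 with Serpinb3a, and Il1b had 0.79 with Krt16 and 0.72 with Krt17. These describe 7 points that share 1 normalisation and, for the alarmins, 1 high array. For Il1b, Krt16 and Krt17, control array 2 was the highest of the 7 (9.49, 9.24 and 8.56). S100a8 exceeded background on 4 of all 8 arrays, Krt17 on 3 and Lcn2 on 1, so their r values are partly between signals under background. Among 9212 named probe sets with at least median spread, those most like S100a9 were Acaca (r = 0.98), which encodes acetyl-CoA carboxylase, the interleukin-27 receptor gene Il27ra (0.96) and Dzip1 (0.96). Il27ra exceeded background on 2 of 8 arrays, those with tieghemelin, so most of its values in this r lie under background. Those most like Il1b were the histone H4 genes H4c18 and H4c2 (0.98 each) and Pibf1 (0.97). For each, 21 of the 9212 had an r above 0.9.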

How the data were processed

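The deposited values were log2 signals of 8 Clariom S Mouse arrays; the log2 scale was read from their range, with a ceiling of 19.93 on 6 arrays. Per the series' design text, the authors normalised the scans in Transcriptome Analysis Console 4.0.1, and the submitters' processing notes also name RMA and Affymetrix Expression Console. RMA makes arrays alike in distribution, which removes most differences in total signal. No genome build is stated in the labels.

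After 6640 control probe sets were set aside, 22206 were fitted without a filter. Names came from the platform annotation, and the gene IDs of the 19572 single-symbol probe sets were all found in RefSeq. Groups came from the labels. Group means over all 8 arrays (4 residual degrees of freedom) were set against each other in limma 3.58.1 (R 4.3.3), with eBayes and Benjamini-Hochberg adjusted p-values over the 22206. With 2 arrays against 2, an exact two-sided permutation p cannot go below 0.33, and the number of arrays limits the precision. The code was tested on simulated data.

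The members and the 23 gene lists (283 genes, 258 measured) were chosen with earlier results of these data known. The naming rule took all members; from each list, up to 3 genes at the study's thresholds without overlap, or else the gene with the largest difference; and the 3 genes most like S100a9 and Il1b. Krt6a, also set for that search, had no probe set, and some genes so chosen from cell type lists are not printed. The paralogs Serpinb3c and Serpinb3d, the keratin Krt75 and the ligand Il1a were added beside the members. Alternatives were a replicate block, a filter on mean signal, quantile normalization, a median shift, eBayes with trend and robust settings, array weights, 2 groups alone and leaving out each array. A shift to a common background median and a crossed block were added after the data were seen. Promoter sequences came from RefSeq (GRCm38.p6).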

Additional observations from a re-analysis of the deposited data

How the results depend on the processing

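The median difference of the 8 genes stayed above 0 under every alternative run, from 0.22 to 0.80 against maslinic acid and from 0.20 to 0.93 against minoxidil when each array was left out, and limma called 0 probe sets after adjustment in both under all of them. Against control, the calls depended on single arrays: leaving out each array gave 0 to 8427 adjusted calls with tieghemelin, 0 to 8282 with maslinic acid and 0 to 8363 with minoxidil, the highest without control array 2, where control array 1 stands alone. Without control array 1 the counts were 79, 1 and 1, without either maslinic acid array tieghemelin had 3, and without maslinic acid array 1 maslinic acid had 1; a lone array was assumed to vary like the other groups. The median of the 8 genes with minoxidil ranged from -0.57, without control array 1, to 0.33 over arrays left out, and reached 0.49 under the other alternatives. The filter on mean signal removed S100a8, Lcn2, Krt17 and Il1rn, so with it each median here is of the other members only. Shifting arrays to a common background median gave 1.48 with tieghemelin and 0.97 with maslinic acid against control, where the median of all probe sets moved to 0.73 and 0.71. Counts at the study's thresholds moved widely over all alternatives: 23 to 455 around 68 for tieghemelin against maslinic acid, 223 to 2320 around 732 against minoxidil, 301 to 2463 around 800 for maslinic acid against minoxidil, and against control 815 to 10549 around 2609 with tieghemelin, 773 to 10499 around 2409 with maslinic acid and 683 to 10508 around 2502 with minoxidil. Among the members, S100a9 against maslinic acid kept its place at those thresholds under 14 of 17 alternatives, and against minoxidil S100a8 did under 12 of 15 and Serpinb3a under 9 of 16. S100a9 left them without tieghemelin array 2 or either maslinic acid array, S100a8 without tieghemelin array 2 or either minoxidil array, and Serpinb3a with the filter and without any single treated array. The log2 differences then were 0.66, 1.27 and 1.10 for S100a9, and 1.54 to 1.99 for Serpinb3a over all arrays left out. For S100a8 no difference is given, since it exceeded background on no minoxidil array. The cause was not tested. Same-numbered arrays did not deviate together (r of -0.17 to 0.09), so the numbers were not taken as pairs; with a replicate block the medians of the 8 genes stayed at 0.52 and 0.43 and 0 probe sets were called after adjustment. A crossed replicate block between tieghemelin and maslinic acid, added after the data were seen, gave 455 at those thresholds and 0 after adjustment. Signal near background limits S100a8, Lcn2, Krt17 and Il1rn.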
